A study of Mus musculus with 2 samples.

Results

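The genes described here encode the proteins of the cytosolic ribosome in CT26, a mouse colon carcinoma cell line. They were chosen by name alone, as protein-coding genes called Rps or Rpl with a number, together with Rplp0, Rplp1, Rplp2 and Rpsa, and 83 of the 54532 genes in the expression table met this rule. Of the 83 genes, 32 belong to the small and 51 to the large ribosomal subunit. The first library came from CT26 cells given lentivirus for mouse Oct4 (gene Pou5f1) and human SOX2. The second came from wild-type CT26 cells given lentivirus with the empty expression vector. Both cultures grew for 4 days in RPMI medium with serum, and total RNA of each was sequenced as 1 library. Both groups share the host line and the lentiviral vector, and the labels name no promoter, clone or batch. With 1 library per group no difference below has a replicate check and none was tested. Intervals beside folds are exact 95% intervals that cover the counting of reads only.

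A ribosome is built from a small subunit, which decodes the messenger RNA, and a large subunit, which joins amino acids into protein. Each subunit holds ribosomal RNA and many different proteins, most of them in equal numbers, so their genes are usually expressed together and at very high levels in growing cells. Their messenger RNAs begin with a run of pyrimidines (the terminal oligopyrimidine or TOP sequence), through which the kinase complex mTORC1 and the RNA-binding protein LARP1 control their translation. Mammalian genomes also carry many processed pseudogenes of these genes, which are intronless copies of their messenger RNAs and can draw reads away from the parent gene.

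The levels used below are FPKM, fragment counts scaled for gene length and library depth, as the authors computed them. The values gave back whole reads for every gene, 31521115 in the Oct4 and SOX2 library and 32262408 in the empty vector library. Pou5f1 had 173 FPKM in the Oct4 and SOX2 library and was listed at 0 in the empty vector library. The mouse Sox2 gene had 23.3 FPKM with Oct4 and SOX2 and 14.1 FPKM with the empty vector, while the vector carried the human gene. The epithelial label of the line had little expression behind it: 2 of 9 epithelial markers reached 1 FPKM, their summed level was 39.9 FPKM with Oct4 and SOX2 and 30.9 FPKM with the empty vector, and Cdh1 was listed at 0 in both. Of the mesenchymal markers, 4 of 5 reached 1 FPKM, with summed levels of 1317 FPKM with Oct4 and SOX2 and 860 FPKM with the empty vector. Vim and Col1a2 were higher with Oct4 and SOX2, while Col1a1 was 1.55-fold lower (1.51 to 1.60) and Pdgfrb 2.85-fold lower (2.64 to 3.09). None of 6 leukocyte markers (3 listed at 0 in both libraries) and none of 4 endothelial markers (2 listed at 0 in both) reached 1 FPKM. The leukocyte markers summed to 0.0688 FPKM with Oct4 and SOX2 and 0.00342 FPKM with the empty vector, and the endothelial markers to 0.580 FPKM with Oct4 and SOX2 and 0.120 FPKM with the empty vector. The part of these markers in the ribosomal protein values was not tested.

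Ribosomal protein transcripts were slightly less abundant in cells with Oct4 and SOX2, and the difference was spread over both subunits. Summed over the 83 genes they amounted to 25815 FPKM with Oct4 and SOX2 and 28386 FPKM with the empty vector, a sum 9.06% lower. They took 4.28% of gene reads with Oct4 and SOX2 (Wilson 95% interval 4.28 to 4.29%) and 4.69% with the empty vector (4.68 to 4.70%). The small subunit genes summed to 10118 FPKM with Oct4 and SOX2 and 11313 FPKM with the empty vector, 10.6% lower. The large subunit genes summed to 15697 FPKM with Oct4 and SOX2 and 17073 FPKM with the empty vector, 8.06% lower. Fewer cells expressing a gene and less RNA of it per cell cannot be told apart in such bulk libraries.

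Gene by gene, 81 of the 83 reached 1 FPKM in at least 1 library, and these are called measured. The others were Rpl3l, a muscle-enriched paralogue with 3 reads in the Oct4 and SOX2 library and 2 in the empty vector library, and Rpl10l, a testis-enriched paralogue with 0 reads in both. Just inside the limit stood Rpl24, at 1.07 FPKM with Oct4 and SOX2 and 0.669 FPKM with the empty vector, from 35 reads with Oct4 and SOX2 and 22 with the empty vector. The measure of size used for counts was the log2 ratio of FPKM plus 1, Oct4 and SOX2 over empty vector. Its median over the 81 genes was -0.15, with quartiles of -0.24 and 0.01, and 60 of the 81 lay below 0. Over all 12401 measured genes the median was -0.01, and 51.7% lay below 0. The small subunit had a median of -0.17, with 24 of 32 genes below 0. The large subunit had a median of -0.13, with 36 of 49 genes below 0.

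The shift was made of many small differences and no large one. A level at least 1.1-fold lower with Oct4 and SOX2 was found for 42 of 81 genes (51.9%), against 34.3% of all measured genes. With both libraries scaled to the same summed FPKM the count was 29 of 81 (35.8%), against 30.4% of all genes. A level at least 1.1-fold higher was found for 12 (14.8%), against 31.2% of all genes. At least 20% lower were 12 genes, or 14.8% against a background of 16.9%, and at least 25% higher were 3, against a background of 16.1%. No gene differed 2-fold in either direction, where the background was 1.85% lower and 2.42% higher. At least 20% lower stood 9 of 32 small subunit genes (28.1%) and 3 of 49 large subunit genes (6.12%). The spread of the log2 ratio was 0.21 (SD over the 81 genes), against 0.47 over all measured genes.

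Other abundant genes and other short genes had medians nearer to that of all genes. The 313 other protein-coding genes with a mean of at least 100 FPKM had a median log2 ratio of -0.03, with 54.6% below 0. At least 1.1-fold lower were 36.1% and higher 30.7% of them, at least 20% lower 19.5% and at least 25% higher 17.6%, and 2-fold lower 1.6% and higher 2.24%. The 66 ribosomal protein genes at that level had a median of -0.16. The 1351 other protein-coding genes under 2000 bases had a median of -0.02. The 77 measured genes for proteins of the mitochondrial ribosome, a separate machine with its own proteins, had a median of -0.06. Across the 81 genes the log2 ratio went with gene length at Pearson r = -0.26 and Spearman rho = -0.28, and with mean FPKM at r = -0.14 and rho = -0.15. These correlations are a description across genes of the same 2 libraries.

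**Figure D1:**
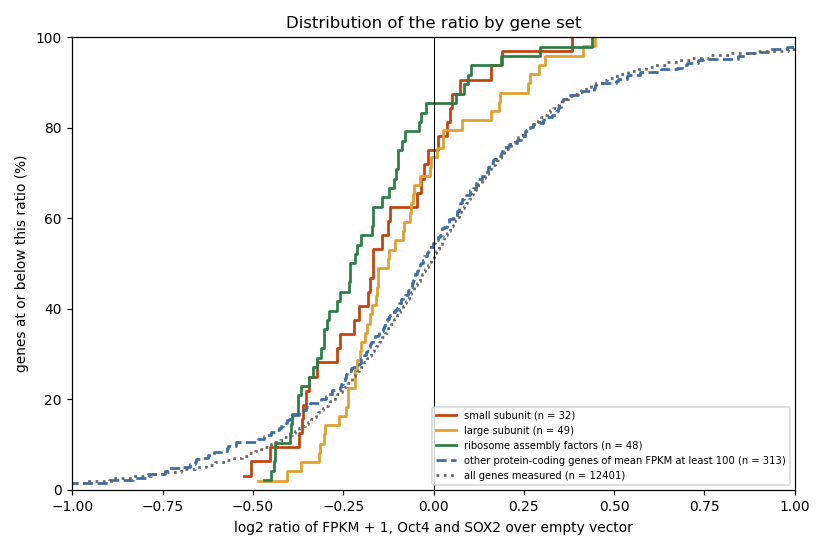
Cumulative share of genes (vertical axis) by the log2 ratio of FPKM plus 1, Oct4 and SOX2 over empty vector (horizontal axis), for the small and large subunit genes, the ribosome assembly factors, the other protein-coding genes of at least 100 FPKM and all measured genes. The curves of both subunits are steeper than those of the last 2 sets and lie to their left through the middle, with medians of -0.17 (small) and -0.13 (large) against -0.01 for all genes.

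The order of the genes by level was largely kept. The median gene had 250.6 FPKM with Oct4 and SOX2 and 262 FPKM with the empty vector. Across the 81 genes, log2 FPKM in the Oct4 and SOX2 library went with that in the empty vector library at r = 0.994 and rho = 0.975. The wide range of levels raises these values, and no such value was taken over all genes. At 100 FPKM or more were 65 of the 83 genes with Oct4 and SOX2 and 67 with the empty vector, and 13 were under 50 FPKM in each library. Among the 100 most abundant protein-coding genes were 33 ribosomal protein genes with Oct4 and SOX2 and 37 with the empty vector. The small subunit sum was 0.645 of the large subunit sum with Oct4 and SOX2 and 0.663 with the empty vector. The levels, per length as the table gives it, spanned 1.07 to 1941 FPKM with Oct4 and SOX2 and 0.669 to 2232 FPKM with the empty vector.

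**Figure D2:**
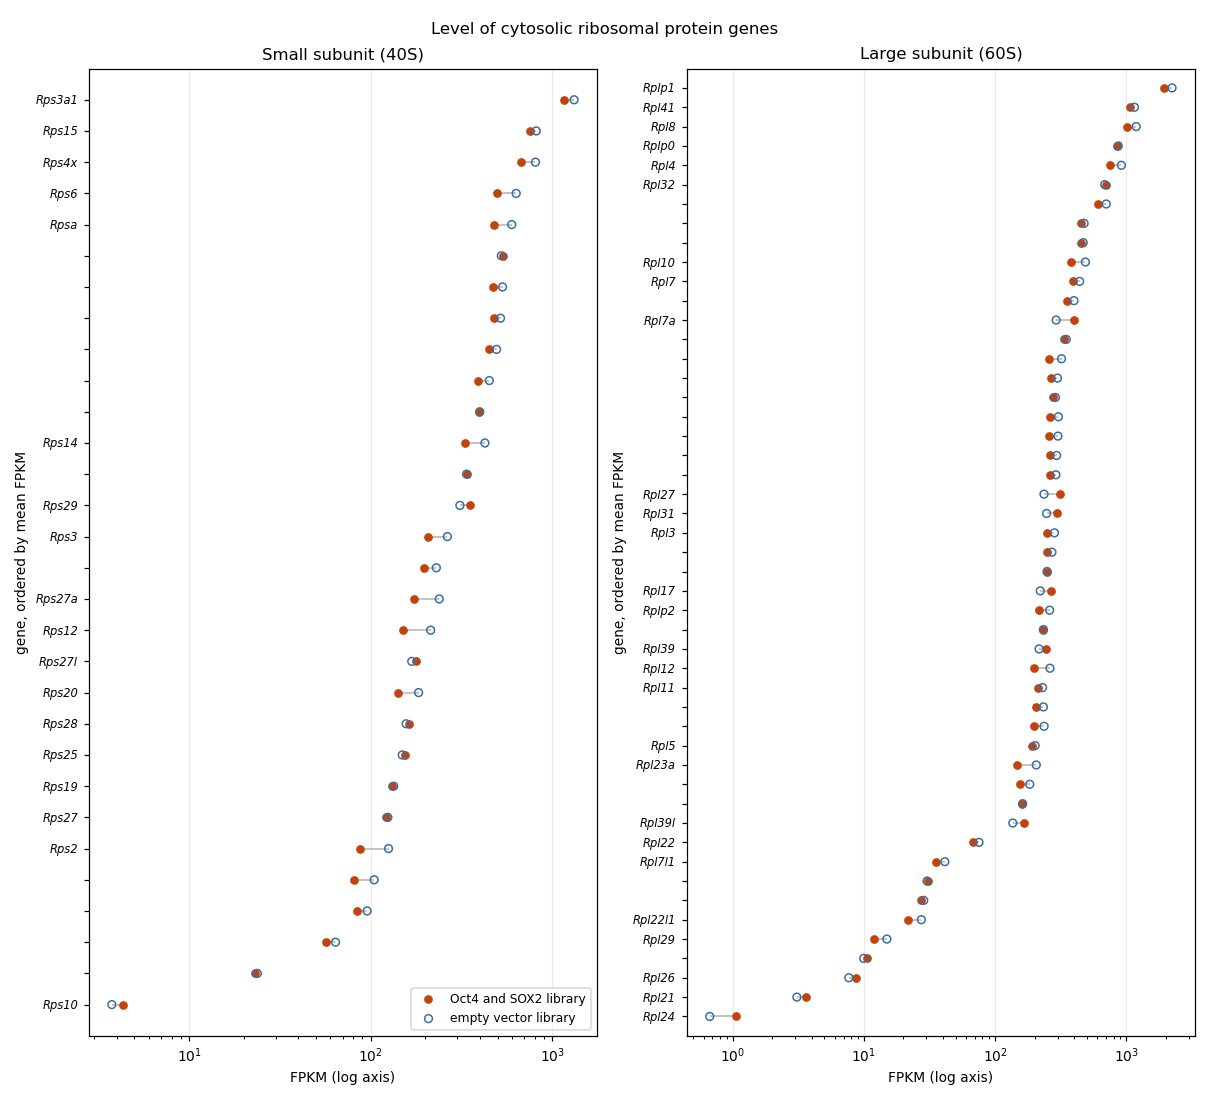
FPKM on a log axis of the ribosomal protein genes shown (30 small and 49 large subunit genes) with Oct4 and SOX2 and with the empty vector, by subunit; each point is 1 gene in 1 library and the genes named in the text are labelled. Most genes lie above 100 FPKM in both libraries, and a small group lies below 50 FPKM in both.

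The 3 small subunit genes with the highest mean FPKM were lower by a small factor with Oct4 and SOX2. Rps3a1, whose protein lies near the mRNA exit, had 1164 FPKM with Oct4 and SOX2 and 1316 FPKM with the empty vector, 1.13-fold lower (1.11 to 1.15). Rps4x, encoded on the X chromosome, had 670.3 FPKM with Oct4 and SOX2 and 806 FPKM with the empty vector, 1.20-fold lower (1.19 to 1.22). Rps15, in the subunit's head, had 749 FPKM with Oct4 and SOX2 and 814 FPKM with the empty vector, 1.09-fold lower (1.06 to 1.11). None of these 3 genes was 20% lower.

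Among genes of at least 5 FPKM in 1 library, the lowest ratios of the small subunit were found in Rps2, Rps12, Rps27a, Rps14 and Rps20. Rps2 (chr17:24718116-24721929, build GRCm38), a protein at the mRNA entry, had 86.7 FPKM with Oct4 and SOX2 and 125 FPKM with the empty vector, 1.44-fold lower (1.39 to 1.496). Rps12 (chr10:23785183-23787275), a protein of the subunit's beak, had 150.1 FPKM with Oct4 and SOX2 and 214 FPKM with the empty vector, 1.42-fold lower (1.39 to 1.46). Rps27a encodes a ribosomal protein fused to ubiquitin, and it had 174 FPKM with Oct4 and SOX2 and 238 FPKM with the empty vector, 1.37-fold lower (1.34 to 1.40). Rps14, the gene deleted in the human del(5q) form of myelodysplasia, had 328 FPKM with Oct4 and SOX2 and 425 FPKM with the empty vector, 1.29-fold lower (1.27 to 1.32). Rps20 had 142 FPKM with Oct4 and SOX2 and 183 FPKM with the empty vector, 1.29-fold lower (1.27 to 1.32). In each of these genes the whole counting interval lay more than 20% lower.

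In the small subunit 8 of 32 genes were higher with Oct4 and SOX2. Rps29, a small zinc-binding protein, had 353 FPKM with Oct4 and SOX2 and 309 FPKM with the empty vector, 1.14-fold higher (1.104 to 1.18). Rps25, which takes part in initiation at viral internal entry sites, had 154 FPKM with Oct4 and SOX2 and 149 FPKM with the empty vector, 1.03-fold higher (1.01 to 1.06). Rps28 had 162 FPKM with Oct4 and SOX2 and 156 FPKM with the empty vector, 1.04-fold higher (1.004 to 1.07). These last differences were a few percent.

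Rps6, Rpsa and Rps19, small subunit genes known for roles in signalling or disease, were all lower, by different factors. Rps6, the ribosomal substrate of the S6 kinases, had 494 FPKM with Oct4 and SOX2 and 631 FPKM with the empty vector, 1.28-fold lower (1.26 to 1.30). Rpsa, also described as a laminin receptor, had 477 FPKM with Oct4 and SOX2 and 597 FPKM with the empty vector, 1.252-fold lower (1.24 to 1.27). Rps19, the gene most often mutated in human Diamond-Blackfan anaemia, had 130.4 FPKM with Oct4 and SOX2 and 134 FPKM with the empty vector, 1.03-fold lower (1.01 to 1.05). The direction of Rps19 flipped when both libraries were scaled to the same summed FPKM.

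In the large subunit the P stalk, the arm of Rplp0, Rplp1 and Rplp2 that recruits the translation factors, summed to 3003 FPKM with Oct4 and SOX2 and 3360.3 FPKM with the empty vector, 10.6% lower. Rplp1 (chr9:61913284-61914542) had the highest FPKM of the whole set in both libraries, with 1941 FPKM with Oct4 and SOX2 and 2232 FPKM with the empty vector, 1.15-fold lower (1.13 to 1.17). Rplp2, its stalk partner, had 217 FPKM with Oct4 and SOX2 and 260.5 FPKM with the empty vector, 1.20-fold lower (1.17 to 1.23). Rplp0, the stalk base, had 845 FPKM with Oct4 and SOX2 and 868 FPKM with the empty vector, 1.03-fold lower (1.01 to 1.04), and its direction flipped on the scale of equal summed FPKM. Levels of different genes depend on the length used: the table gives Rplp1 499 bases and Rplp2 2072, while their principal messenger RNAs have 499 and 964 bases. Per kilobase of messenger RNA, Rplp1 had 61828 reads and Rplp2 14856 with Oct4 and SOX2, against 71227 and 17870 with the empty vector. On that scale Rpl41 stood above Rplp1, with 68471 reads with Oct4 and SOX2 and 73878 with the empty vector.

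Rpl8, close to the site of peptide bond formation, had 1010.1 FPKM with Oct4 and SOX2 and 1190.2 FPKM with the empty vector, 1.18-fold lower (1.16 to 1.19). Rpl41, which encodes the shortest of the ribosomal proteins, had 1071 FPKM with Oct4 and SOX2 and 1153 FPKM with the empty vector, 1.08-fold lower (1.06 to 1.09). Rpl32, chosen after its values were seen, had 698 FPKM with Oct4 and SOX2 and 686 FPKM with the empty vector. It was 1.02-fold higher (0.999 to 1.04), an interval that includes 1. Rpl5 and Rpl11 carry the smallest ribosomal RNA into the large subunit and bind MDM2, the ubiquitin ligase of p53, when assembly fails. Rpl5 had 190.2 FPKM with Oct4 and SOX2 and 202 FPKM with the empty vector, 1.06-fold lower (1.04 to 1.08). Rpl11 had 211 FPKM with Oct4 and SOX2 and 230.1 FPKM with the empty vector, 1.09-fold lower (1.07 to 1.11). Both sensors differed by less than 1.1-fold.

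Under the same limit, the lowest ratios of the large subunit belonged to Rpl23a, Rpl12, Rpl10, Rpl29 and Rpl22l1. Rpl23a (chr11:78180932-78183584), a protein at the exit of the peptide tunnel, had 147 FPKM with Oct4 and SOX2 and 206 FPKM with the empty vector, 1.40-fold lower (1.35 to 1.46). Rpl12, at the base of the stalk, had 197 FPKM with Oct4 and SOX2 and 262 FPKM with the empty vector, 1.33-fold lower (1.30 to 1.35). Rpl10, which joins last during maturation of the subunit, had 378 FPKM with Oct4 and SOX2 and 488 FPKM with the empty vector, 1.29-fold lower (1.27 to 1.31). Rpl29 had 11.8 FPKM with Oct4 and SOX2 and 15.0 FPKM with the empty vector, 1.26-fold lower (1.11 to 1.44). Its reads were few, 425 with Oct4 and SOX2 and 538 with the empty vector, and its interval is correspondingly wide.

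Among genes of at least 5 FPKM in 1 library, the highest ratios of the large subunit belonged to Rpl7a, Rpl27, Rpl39l, Rpl17 and Rpl31. Rpl7a (chr2:26910764-26913318) had 398 FPKM with Oct4 and SOX2 and 292 FPKM with the empty vector, 1.36-fold higher (1.34 to 1.39). Rpl27 (chr11:101442298-101445529) had 314 FPKM with Oct4 and SOX2 and 236 FPKM with the empty vector, 1.33-fold higher (1.30 to 1.37). Rpl31, at the tunnel exit, had 296 FPKM with Oct4 and SOX2 and 247 FPKM with the empty vector, 1.20-fold higher (1.17 to 1.23). Rpl17, which lines the peptide tunnel, had 266 FPKM with Oct4 and SOX2 and 221 FPKM with the empty vector, 1.21-fold higher (1.16 to 1.249), a direction that did not hold once its copies were counted with it, as given below. Rpl7a and Rpl27 were 2 of the 3 genes of the set at least 25% higher on the scale of FPKM plus 1.

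**Figure D3:**
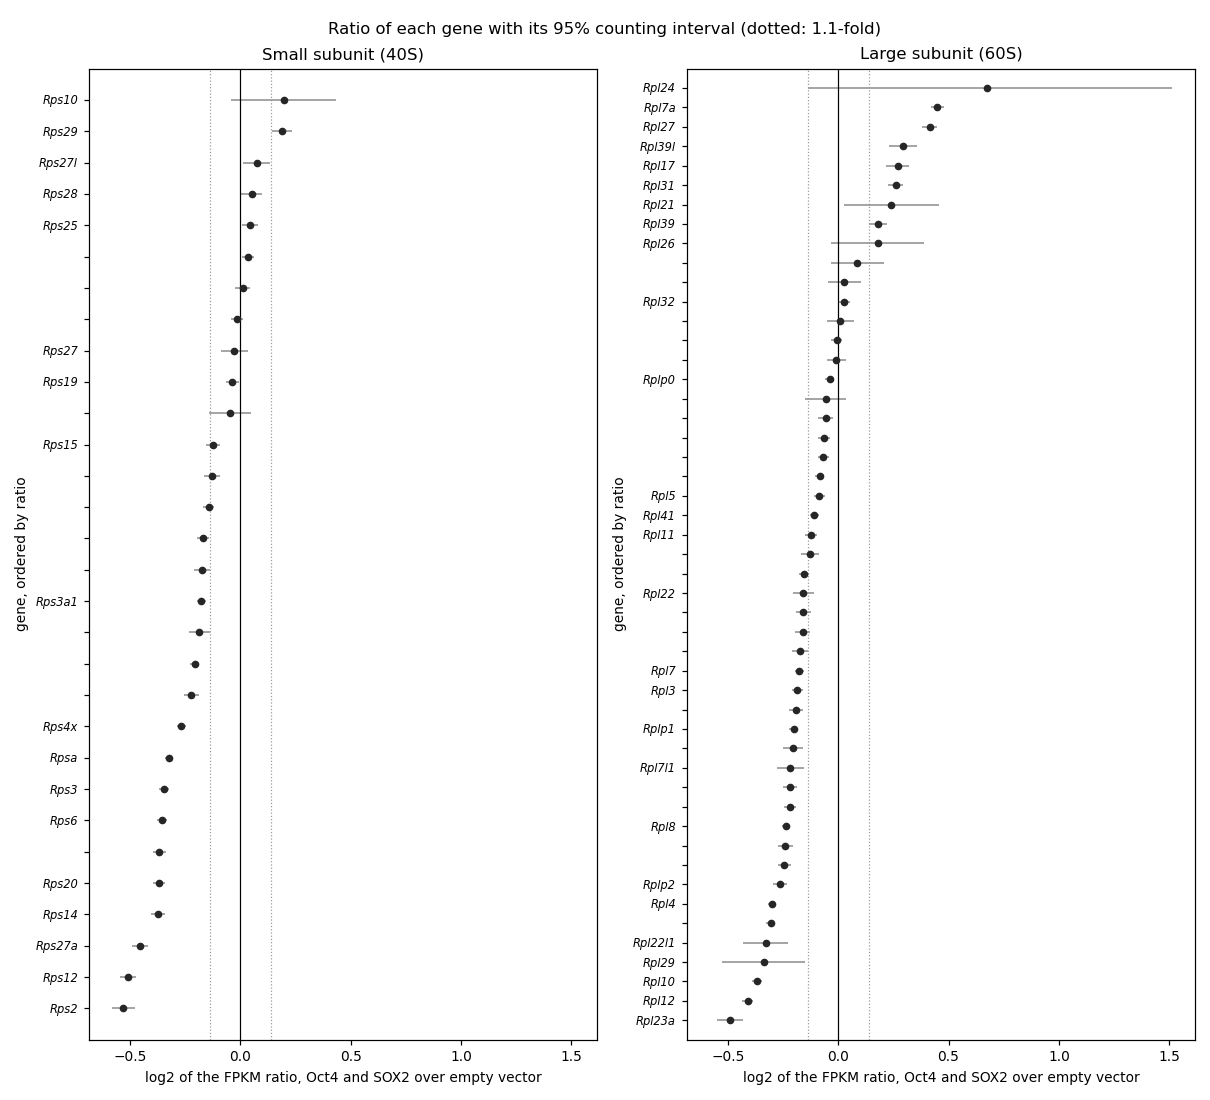
Log2 of the FPKM ratio, Oct4 and SOX2 over empty vector, of 30 small and 49 large subunit genes, by subunit and in order of the ratio; bars are exact 95% counting intervals and dotted lines mark 1.1-fold. Most points lie below 0, Rps2 and Rpl23a are at the low end of their subunits, Rpl27 and Rpl7a are near the high end, and Rpl24, with 35 and 22 reads, is highest with the widest bar.

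Paralogues named after a standard protein did not all lie on the same side. Rpl39l, described as a male germ cell form of Rpl39, had 167 FPKM with Oct4 and SOX2 and 136 FPKM with the empty vector, 1.23-fold higher (1.17 to 1.28). Its parent Rpl39 had 245 FPKM with Oct4 and SOX2 and 216 FPKM with the empty vector, 1.13-fold higher (1.103 to 1.16). Both members of this pair were higher. Rps27l, a p53-induced form of Rps27, had 177 FPKM with Oct4 and SOX2 and 168 FPKM with the empty vector, 1.05-fold higher (1.01 to 1.098). Rps27 itself had 122 FPKM with Oct4 and SOX2 and 124 FPKM with the empty vector, 1.02-fold lower (0.975 to 1.06), an interval that includes 1, and its direction flipped under 3 of 4 other scalings. In both libraries Rps27l had the higher FPKM of the pair, but FPKM rests on the table's gene lengths. Per kilobase of the principal messenger RNA the order turned, with 9218 reads for Rps27l and 11745 for Rps27 with Oct4 and SOX2, and 8772 for Rps27l and 11980 for Rps27 with the empty vector.

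Rpl22l1, a paralogue that is known to be raised when Rpl22 is lost, had 21.8 FPKM with Oct4 and SOX2 and 27.4 FPKM with the empty vector, 1.26-fold lower (1.17 to 1.35). Rpl22 had 67.6 FPKM with Oct4 and SOX2 and 75.4 FPKM with the empty vector, 1.11-fold lower (1.08 to 1.15). Rpl7l1 had 35.6 FPKM with Oct4 and SOX2 and 41.4 FPKM with the empty vector, 1.16-fold lower (1.11 to 1.21). Rpl7 had 390.4 FPKM with Oct4 and SOX2 and 441 FPKM with the empty vector, 1.13-fold lower (1.11 to 1.15). Both of these pairs were lower together. Rpl3, the parent of the scarcely detected Rpl3l, had 249.5 FPKM with Oct4 and SOX2 and 284 FPKM with the empty vector, 1.14-fold lower (1.12 to 1.16).

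Some ribosomal proteins are encoded by genes that the naming rule does not match. Fau, the precursor of a small subunit protein, had 562 FPKM with Oct4 and SOX2 and 681 FPKM with the empty vector, 1.21-fold lower (1.18 to 1.24). Rack1, a scaffold protein on the small subunit, had 209 FPKM with Oct4 and SOX2 and 247 FPKM with the empty vector, 1.18-fold lower (1.17 to 1.20). Rpl36al had 1.14 FPKM with Oct4 and SOX2 and 1.46 FPKM with the empty vector, 1.28-fold lower (0.870 to 1.90). Rps27rt, an intronless protein-coding copy of Rps27 chosen here after its values were seen, had 339 FPKM with Oct4 and SOX2 and 261 FPKM with the empty vector, 1.30-fold higher (1.24 to 1.36).

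Reads can be split between a ribosomal protein gene and its copies, and how such reads were counted is not known, so its part in the levels was not tested. Of the 83 genes, 27 had no stretch of 50 coding bases that was found in no other annotated gene, and 15 had at least 50% of such stretches to themselves. Rps10, a small subunit protein at the mRNA entry, had 4.31 FPKM with Oct4 and SOX2 and 3.76 FPKM with the empty vector, 1.15-fold higher (0.973 to 1.35). Its processed pseudogene Rps10-ps2 had 245 FPKM with Oct4 and SOX2 and 292 FPKM with the empty vector. The aligned parts of gene and copy, 496 bases long, differed at 5 bases and were 99.0% identical. The 60 bases of the coding sequence that hold 4 of these differences are printed because they show how little sequence separates the gene from a copy listed at a much higher level. They run from coding base 379 to 438, counted from the start codon, in GRCm38, with the differing bases in capitals, from Rps10 at chr17:27630418-27636669 (minus strand) and Rps10-ps2 at chr16:20822145-20822640 (minus strand).
Rps10: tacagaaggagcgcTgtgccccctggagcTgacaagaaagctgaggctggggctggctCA
Rps10-ps2: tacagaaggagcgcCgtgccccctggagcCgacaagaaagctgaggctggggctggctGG

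The gene Rps10 held 317 reads with Oct4 and SOX2 and 277 with the empty vector, and its named copies held 4246 reads with Oct4 and SOX2 and 4981 with the empty vector. Gene and copies together had a ratio of 0.869 (0.835 to 0.905), so the direction of Rps10 turned when its copies were counted with it. Rpl17 had 6580 reads with Oct4 and SOX2 and 5470 with the empty vector, while its named copies had 7958 with Oct4 and SOX2 and 10387 with the empty vector. Their sum had a ratio of 0.918 (0.898 to 0.939), again in the opposite direction to the gene alone. Rps2 had 5058 reads with Oct4 and SOX2 and 7313 with the empty vector, and its named copies had 28083 with Oct4 and SOX2 and 37279 with the empty vector. Here the sum, at 0.745 (0.734 to 0.755), kept the direction of the gene. These 3 genes were the ones whose named copies held more reads than the gene itself in the empty vector library.

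Over all 296 rows named as copies of these genes, reads numbered 82878 with Oct4 and SOX2 and 101575 with the empty vector, a ratio of 0.817 (0.810 to 0.825). The 83 genes themselves had a read ratio of 0.894 (0.892 to 0.896). Ratios of reads here rest on the library totals implied by FPKM, not on the summed gene reads behind the shares given above. The 1052 pseudogenes that share a 50-base coding stretch with a member had 209813 reads with Oct4 and SOX2 and 258451 with the empty vector, a ratio of 0.813 (0.809 to 0.818). Adding these reads to the gene with the most shared stretches turned the direction of 9 of the 81 genes, 8 of which were higher alone. Of the 12 genes at least 1.1-fold higher, Rpl17, Rpl21, Rpl24, Rpl26 and Rps10 turned, while 7 kept their direction, Rpl27, Rpl31, Rpl39, Rpl39l, Rpl7a and Rps29 among them. For Rpl24 the sum had a ratio of 0.696 (0.607 to 0.798), and for Rpl26 it was 0.833 (0.813 to 0.852). For Rplp0 the sum had a ratio of 0.867 (0.860 to 0.875), against 0.973 for the gene alone. The pseudogenes added to Rplp0 held 49506 reads with Oct4 and SOX2 and 62835 with the empty vector, more than the gene itself. With these pseudogene reads, Rpl29 was the 1 gene that was lower alone and turned, with a ratio of 1.06 (1.01 to 1.12) for the sum. Copies annotated as protein-coding, such as Rps27rt, were not among these pseudogenes, and their reads were not added here. Rps27rt held 4036 reads with Oct4 and SOX2 and 3118 with the empty vector, against 4052 and 4133 for Rps27.

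The small shift was also present among genes with mostly private sequence. The 13 measured genes with at least 50% of coding stretches found nowhere else had a median log2 ratio of -0.15, and 9 of them lay below 0. At least 1.1-fold lower were 53.8% of these, against 34.3% of all genes. The 68 others also had a median of -0.15. Within them, the 27 genes with no private stretch had a median of -0.083, and 37.0% were at least 1.1-fold lower, a share near that of all genes. Rps3, with 92.0% private stretches, had 208 FPKM with Oct4 and SOX2 and 264 FPKM with the empty vector, 1.27-fold lower (1.251 to 1.29). Rpl4, with 79.8%, had 745 FPKM with Oct4 and SOX2 and 917 FPKM with the empty vector, 1.23-fold lower (1.22 to 1.247). Rps3 and Rpl4 were picked for this property after their values were seen. Rpl39l, at 100%, was higher, as given above. Across the 81 genes the private share went with the log2 ratio at r = -0.07 and rho = -0.12.

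**Figure D4:**
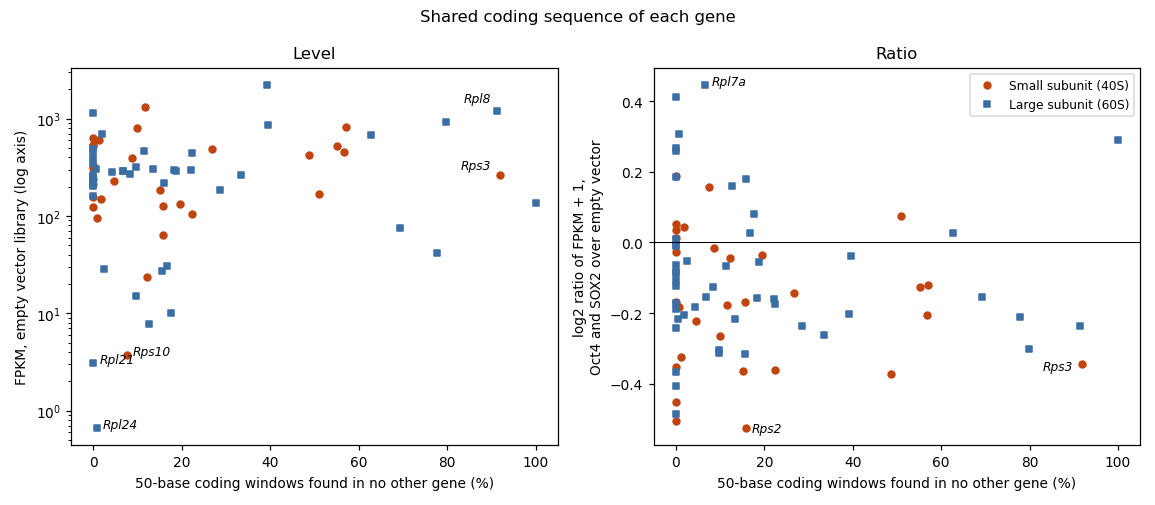
Share of 50-base coding stretches found in no other annotated gene (percent, horizontal axis) against FPKM in the empty vector library on a log axis (left) and against the log2 ratio of FPKM plus 1, Oct4 and SOX2 over empty vector (right); each point is 1 of 30 small or 49 large subunit genes. Genes with few private stretches are found at both high and low levels (r = 0.23, rho = 0.096 with mean FPKM over the 81 measured genes), and the ratio went with the private share at r = -0.07.

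Promoter sequence was set beside the ratios because the TOP run at the start of the transcript is the shared mark of these genes. The RefSeq promoter table (GRCm38.p6) gave 300 bases for 63 of the 83 genes. A gene was counted if any of its listed promoters matched. A pyrimidine run (C or T only) of at least 8 bases was sought on the gene's own strand within 20 bases of the annotated start. It was found in 30 of 63 genes (47.6%) and in 18.4% of all 27025 genes with a listed promoter. The letters CCGGAAG, the core of binding sites of ETS factors, were found on either strand in 26 of 63 (41.3%) and in 9.93% of all these genes. A match is a description of the letters only. The run could lie before or after the annotated start, so it is no measure of a TOP sequence, and TOP status was not tested. The 40 bases around the start are printed for 2 genes that were lower and 4 that were higher with Oct4 and SOX2, in order of fold, with the run in capitals. They come from chr10:23787190-23787229 (Rps12, minus strand), chr3:28805488-28805527 (Rpl22l1), chr9:44407694-44407733 (Rps25), chr9:66946066-66946105 (Rps27l), chr1:39367831-39367870 (Rpl31) and chr2:26910787-26910826 (Rpl7a), all but the first on the plus strand.
Rps12: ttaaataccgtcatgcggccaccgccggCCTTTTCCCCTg
Rpl22l1: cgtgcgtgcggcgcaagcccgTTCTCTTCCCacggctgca
Rps25: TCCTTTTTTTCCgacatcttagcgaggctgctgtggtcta
Rps27l: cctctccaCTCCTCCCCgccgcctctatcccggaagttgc
Rpl31: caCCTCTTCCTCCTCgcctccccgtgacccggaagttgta
Rpl7a: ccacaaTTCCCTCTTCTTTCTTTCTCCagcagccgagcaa

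The run was present at both ends of the range, in Rps12 at 1.42-fold lower and, with 21 bases, in Rpl7a at 1.36-fold higher. In Rps25, Rps27l and Rpl31 the printed run ended before the annotated start. The 30 measured genes with the run had a median log2 ratio of -0.14, with 22 below 0. The 31 without it had a median of -0.15, with 25 below 0. The 26 genes with CCGGAAG had a median of -0.13 and the 35 without it a median of -0.16. Neither run nor motif separated genes with low ratios from those with high ones by more than a few hundredths on the log2 scale.

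Ribosome assembly factors, which shape and join ribosomal RNA and proteins, were mostly lower with Oct4 and SOX2. Of 48 such genes, 31 (64.6%) were at least 1.1-fold lower and 3 higher, with a median of -0.22, against 34.3% lower, 31.2% higher and a median of -0.01 over all genes. Utp20, of the complex that starts small subunit assembly, had 24.0 FPKM with Oct4 and SOX2 and 33.6 FPKM with the empty vector, 1.40-fold lower (1.36 to 1.44). Noc3l, of large subunit assembly, had 16.9 FPKM with Oct4 and SOX2 and 23.2 FPKM with the empty vector, 1.38-fold lower (1.30 to 1.46). Ncl, the abundant nucleolar protein nucleolin, had 131 FPKM with Oct4 and SOX2 and 169.7 FPKM with the empty vector, 1.30-fold lower (1.28 to 1.32). Nop10, a small core protein of the pseudouridylation complex, had 41.4 FPKM with Oct4 and SOX2 and 30.3 FPKM with the empty vector, 1.37-fold higher (1.26 to 1.48). Noc4l had 18.9 FPKM with Oct4 and SOX2 and 15.3 FPKM with the empty vector, 1.24-fold higher (1.15 to 1.34). Nop56, of the methylation complex, had 95.5 FPKM with Oct4 and SOX2 and 101 FPKM with the empty vector, 1.06-fold lower (1.04 to 1.09).

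The 15 genes of RNA polymerase I and its factors, which make the ribosomal RNA, had a median of 0.01, with 4 (26.7%) at least 1.1-fold lower, against 34.3% of all genes, and 4 higher, against 31.2%. Taf1b, of the selectivity factor that places polymerase I at its promoter, had 5.68 FPKM with Oct4 and SOX2 and 7.64 FPKM with the empty vector, 1.34-fold lower (1.19 to 1.52). Ubtf, the upstream binding factor, had 28.5 FPKM with Oct4 and SOX2 and 32.6 FPKM with the empty vector, 1.15-fold lower (1.11 to 1.19). Cd3eap, a polymerase I subunit, had 13.7 FPKM with Oct4 and SOX2 and 10.4 FPKM with the empty vector, 1.31-fold higher (1.19 to 1.43). Taf1c, of the same factor, had 5.96 FPKM with Oct4 and SOX2 and 4.64 FPKM with the empty vector, 1.28-fold higher (1.14 to 1.44). Of 5 chaperones of ribosomal proteins, 1 (20%) was at least 1.1-fold lower, against 34.3% of all genes, and 0 higher, against 31.2%. The lower gene was Bccip, with 28.5 FPKM with Oct4 and SOX2 and 36.0 FPKM with the empty vector, 1.26-fold lower (1.19 to 1.34).

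Other messenger RNAs with a TOP sequence were mixed. Of 16, 6 (37.5%) were at least 1.1-fold lower, near the 34.3% of all genes, and 3 (18.8%) higher, against 31.2%, with a median of -0.08. Npm1, the nucleolar protein nucleophosmin, had 283 FPKM with Oct4 and SOX2 and 431 FPKM with the empty vector, 1.52-fold lower (1.5002 to 1.55). Eef1g, a subunit of an elongation factor, had 240.5 FPKM with Oct4 and SOX2 and 320.5 FPKM with the empty vector, 1.33-fold lower (1.31 to 1.36). Hnrnpa1, a splicing factor, had 257 FPKM with Oct4 and SOX2 and 208 FPKM with the empty vector, 1.24-fold higher (1.21 to 1.26). The elongation factors Eef1a1 and Eef2 differed little. Eef1a1 had 3126 FPKM with Oct4 and SOX2 and 3259 FPKM with the empty vector, 1.04-fold lower (1.04 to 1.05), and Eef2 had 1306 FPKM with Oct4 and SOX2 and 1385 FPKM with the empty vector, 1.06-fold lower (1.05 to 1.07).

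Among 30 initiation factors 14 (46.7%) were at least 1.1-fold lower, against 34.3% of all genes, and 5 (16.7%) higher, against 31.2%, with a median of -0.11. Eif3a, the largest subunit of a scaffold for the small ribosomal subunit, had 149 FPKM with Oct4 and SOX2 and 207 FPKM with the empty vector, 1.39-fold lower (1.36 to 1.41). Eif3l, another subunit of the same complex, had 71.3 FPKM with Oct4 and SOX2 and 58.5 FPKM with the empty vector, 1.22-fold higher (1.18 to 1.26). Of 9 measured elongation and termination factors, 4 (44.4%) were at least 1.1-fold lower, against 34.3% of all genes, and 0 higher, against 31.2%, with a median of -0.12. Hbs1l, a rescue factor for stalled ribosomes, had 10.1 FPKM with Oct4 and SOX2 and 13.4 FPKM with the empty vector, 1.32-fold lower (1.246 to 1.40).

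The genes of the mTORC1 and LARP1 control of TOP messenger RNAs held the 1 difference of at least 2-fold on the scale of FPKM plus 1 in these lists. Ddit4, a stress-induced inhibitor of mTORC1, had 20.2 FPKM with Oct4 and SOX2 and 48.8 FPKM with the empty vector, 2.42-fold lower (2.26 to 2.60). Sesn2, another inhibitor of the pathway, had 31.7 FPKM with Oct4 and SOX2 and 44.1 FPKM with the empty vector, 1.39-fold lower (1.33 to 1.45). Larp1 had 61.4 FPKM with Oct4 and SOX2 and 68.8 FPKM with the empty vector, 1.12-fold lower (1.09 to 1.15). Eif4ebp2, a repressor of cap-dependent translation, had 31.5 FPKM with Oct4 and SOX2 and 24.8 FPKM with the empty vector, 1.27-fold higher (1.22 to 1.32). Over the 19 measured genes of this list the median was -0.10, with 9 (47.4%) at least 1.1-fold lower, against 34.3% of all genes, and 3 (15.8%) higher, against 31.2%. No list median changed sign under any of the 4 other scalings tried.

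**Figure D5:**
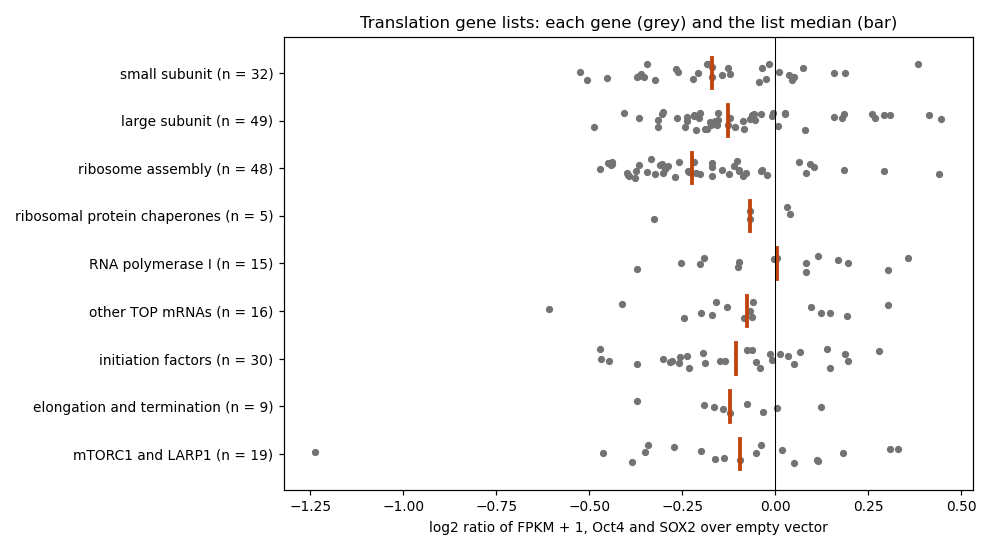
Log2 ratio of FPKM plus 1, Oct4 and SOX2 over empty vector, of each measured gene (points) and the median (bar) of each list: the ribosomal proteins by subunit, assembly factors, chaperones, RNA polymerase I, other TOP messenger RNAs, initiation and elongation factors, and the mTORC1 and LARP1 genes. Assembly factors have the lowest median of the larger lists (-0.22), RNA polymerase I lies at 0.01, and Ddit4 is the lowest point.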

How the data were processed

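RNA of 2 libraries was sequenced, 1 per group, and the authors deposited 1 table of FPKM per gene. Per the labels' protocols, total RNA was made into libraries with a NEBNext Ultra kit. Per the submitters' processing notes CASAVA, HISAT2, featureCounts 1.5.0-p3 and build GRCm38 were used. For strandedness, reads with several matches and the scaling behind FPKM, no setting is given in the sources used here. FPKM times gene length gave whole reads for 100% of values (tolerance 0.001 reads), 31521115 with Oct4 and SOX2 and 32262408 with the empty vector. No count test was run, because 1 library per group leaves no residual.

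Folds are plain FPKM ratios, with exact conditional binomial 95% intervals from the recovered reads (Python 3.11.15, scipy 1.17.1). Folds and read ratios use the library totals that FPKM implies, while shares of gene reads use the recovered reads. The implied total was 1.011 times the recovered reads with Oct4 and SOX2 and 0.989 times with the empty vector. Folds on plain read totals are therefore slightly higher, and the intervals do not cover this. Counts and medians used log2(FPKM + 1) for genes of at least 1 FPKM in 1 library, which understates differences of low genes. The steps were checked on simulated data. Shared sequence was measured as 50-base windows of the principal coding sequence in GENCODE M21; 81 of the 83 genes had the same coordinates there as in the table. Named genes were the 5 highest and 5 lowest ratios and 3 highest levels per subunit, paralogues with their parents, the stalk, Rpsa, unmatched subunits, Rps19, Rpl5, Rpl11, Rps6 and Rpl10, and in each other list from the 2 highest, 2 lowest and 2 most abundant, not all of which are given. Genes outside this rule were picked with their values in view. The members and lists were chosen with earlier results of these data known. Values of a few genes are not reported here by name, and these genes are left out of the plots of single members.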

Additional observations from a re-analysis of the deposited data

How the results depend on the processing

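The medians stayed below 0 and the summed fold below 1 under all 15 alternatives. The count of genes at least 1.1-fold lower, 42 of 81, was 37 with plain read totals and 29 with equal summed FPKM. It was 35 with library totals taken without the 50 most abundant genes, a scaling that kept all 81 genes in the count. Of all genes, 31.3%, 30.4% and 31.2% were that much lower on these scales, in that order. The median over the ribosomal protein genes (-0.15) ranged over -0.16 to -0.10. It was -0.12 with plain read totals and also with totals taken without the 50 most abundant genes. With both libraries scaled to the same summed FPKM it was -0.10. The last scale gave -0.11 for the small and -0.070 for the large subunit, and put 51 of 81 genes below 0 and the median of all genes at 0.04. With genes of at least 50% private coding stretches, an alternative added after seeing the data, the medians were -0.13 (small) and -0.18 (large), and 7 of 13 genes were at least 1.1-fold lower. The summed FPKM fold (0.909) was 0.907 with the 4 unmatched subunit genes and also without paralogues, 0.903 with named copies and 0.895 with all sharing pseudogenes (added after seeing the data). It was 0.918 centred on the median of all genes, 0.916 within GC classes and 0.921 within length classes. With plain totals it was 0.929, with totals taken without the 50 most abundant genes 0.930, and with equal summed FPKM 0.946. No paired analysis was possible because each group had 1 library, and for the same reason no library could be left out. Depth limited Rpl24, Rpl3l and Rpl10l, and the counting intervals do not cover differences between cultures.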
